A study of Mus musculus with 9 samples.

Results

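The genes described here are 37 components of the oxidative stress defence of mouse cells: the transcription factor NRF2 (gene Nfe2l2) with its regulators, and the enzymes of glutathione, thioredoxin and peroxide metabolism. They were chosen by symbol from a list of known members of these systems, and all 37 symbols were found among the 46078 genes of the deposited expression table. In 2 cases, Gstp1 and Txnrd2, a second identifier carried the same symbol and stood at 0 in every library, so the identifier with reads was used. Of the 37 genes, 35 reached 1 FPKM (fragments per kilobase of transcript, set to the size of the library, a level that allows for gene length) in at least 3 libraries and were tested. The 2 others were Sod3, at 0.01 or below in all libraries, and Gstt1, at 0.91 or below. A further 2, Mgst2 and Slc7a11, passed only through the culture in which they were high, so their calls against that culture follow in part from the filter.

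The levels came from 9 RNA sequencing libraries of cultured macrophages of C57BL/6J mice, 3 per culture. BMM were bone marrow macrophages, for which the labels describe no medium. FLM_M were macrophages from fetal liver of gestational day 15 to 19, kept with 30% supernatant of L cells, which secrete the growth factor M-CSF, in medium containing 20% fetal bovine serum. FLM_G were macrophages from fetal liver of the same days, kept with 10% fetal bovine serum and 30 ng/ml recombinant GM-CSF, a growth factor for granulocytes and macrophages. All cells had been cultured for at least 8 weeks, and 250000 cells per well had been plated in triplicate 1 day before harvest. FLM_M and FLM_G therefore differed in both growth factor and serum, and BMM differed from both in tissue of origin. Nothing in the labels says that the 3 libraries of a culture came from separate animals, so the p-values rest on the variation among these libraries alone and that variation may be technical.

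In unstressed cells KEAP1 holds NRF2 for degradation through a ubiquitin ligase. Oxidants and electrophiles release NRF2, which enters the nucleus and, with a small MAF protein, binds antioxidant response elements before the genes of detoxifying enzymes. Glutathione, a small thiol made from glutamate, cysteine and glycine, serves peroxidases and transferases and is returned to its reduced form with NADPH. Thioredoxin, kept reduced by its own reductase, serves most peroxiredoxins. Macrophages make superoxide and peroxide when they take up microbes, and these enzymes limit the damage to the cell itself.

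Because NRF2 acts through a short DNA element, the promoters of the members were searched for it, from 250 bases before to 50 bases after each RefSeq start (GRCm38.p6). Promoters of 32 members were found, 41 in all; Gsr, Gclc, Abcc1, Prdx6 and Sod3 were not in the table. The strict letters TGANTCAGC, read on both strands, stood in 5 of the 32 members (15.6%), against 1.37% of all 27025 genes of the table and 1.19% of its 32851 promoters. The looser letters TGACNNNGC, which overlap the strict ones in TGACTCAGC, stood in 8 of 32 members (25.0%), against 14.0% of all genes and 12.4% of promoters. The 8 were Nfe2l2, Srxn1, Gclm, Prdx1, Mgst1, Me1, Txnrd1 and Sod1. A match is a description of the letters and not a site shown to be bound. The 5 windows with the strict letters are given because their genes went different ways between the cultures, as described under each gene. They are written 5' to 3' on the strand of the gene, with 10 bases on either side of the match in capitals.
Srxn1: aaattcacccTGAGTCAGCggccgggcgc
Prdx1: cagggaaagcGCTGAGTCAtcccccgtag
Osgin1: aggggcccctGCTGACTCAcgcttatgaa
Me1: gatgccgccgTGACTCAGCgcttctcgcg
Gstp1: tccaacgtgtTGAGTCAGCatccggggcg
The Srxn1 window (chr2:152105469-152105497, plus strand) has its match 45 bases before the start, outside the gene in GENCODE M21. The Prdx1 window (chr4:116685456-116685484, plus strand) has it 133 bases before the start, also outside the gene, with the motif on the opposite strand. In Osgin1 (chr8:119437038-119437066, plus strand) the match lay 99 bases before the RefSeq start, on the opposite strand and in an intron of a longer M21 model. The Me1 window (chr9:86695902-86695930, minus strand) has it 6 bases before the RefSeq start, within an exon of the longer M21 model. The Gstp1 window (chr19:4037968-4037996, minus strand) has it 74 bases before the RefSeq start, in part within the M21 exon.

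Depth could be estimated only roughly. In genes with 1 annotated transcript, low FPKM fitted best as multiples of 1 read at 28550000 to 35680000 reads per library, where 29.5 to 35.5% of these values lay within 0.02 of a whole read. At that depth 1 FPKM stood for 28.6 to 35.7 reads per kilobase. Libraries of a culture correlated at 0.986 to 0.992 over all tested genes and libraries of different cultures at 0.785 to 0.936. The 10 macrophage markers, Csf1r, Cd68 and Lyz2 among them, were all present. Of the markers of other cells that fetal liver or marrow could bring, erythroid genes summed to 0.28 FPKM at most in any library (Alas2 and Slc4a1 at 0), neutrophil genes to 0.45, mast cell genes to 0.04, stromal genes to 0.21 and lymphocyte genes to 0. Hepatocyte markers summed to 0.79 to 2.94, with Alb, Ttr and Apoa1 at 0. Endothelial markers summed to 1.35 to 1.47 in BMM, 6.43 to 8.36 in FLM_M and 4.23 to 4.43 in FLM_G, and dendritic markers to 0.13 at most in BMM, 0.38 to 0.52 in FLM_M and 2.13 to 3.08 in FLM_G. Single genes made up most of the higher sums: Afp among hepatocyte markers, Kdr in FLM_M (mean 6.63), and Cdh5 (4.28) and Clec9a (2.45) in FLM_G. The other markers did not follow. Emcn was at 0 in every library, Flt3 and Xcr1 at 0 in FLM_G, and the dendritic marker Zbtb46 averaged 0.33 in FLM_M and 0.07 in FLM_G. Xist was at 0 in BMM and at 41.3 to 74.3 in the fetal liver cultures, while Ddx3y was at 8.47 to 10.4 in BMM and at 0.02 or below in the others. Sex of the cells thus moved with the comparison of either fetal liver culture with BMM, its part in the results was not tested, and Prdx4 was the only member on the X chromosome. In bulk RNA, fewer cells of a type and less RNA per cell cannot be told apart.

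Across the members, FLM_M stood mostly below BMM, and FLM_G stood above both for some enzymes and below both for others. Levels below are FPKM scaled between libraries, given for replicates 1, 2 and 3 in order, and differences are on the log2(FPKM + 1) scale, on which the change of low genes is understated. A gene is said to have risen, fallen or been called where limma, fitted over all 11952 tested genes, gave a Benjamini-Hochberg adjusted p under 0.05. Between FLM_M and BMM, 4 members were higher and 21 lower in FLM_M, 25 of 35 (71.4%), against 44.6% of all genes tested (22.7% higher and 21.9% lower). Their median log2 difference was -0.44, and that of all tested genes 0.00. Between FLM_G and BMM, 14 were higher and 17 lower in FLM_G, 31 of 35 (88.6%), against 68.0% of all genes (33.8% and 34.1%), with a median of -0.12. Between FLM_G and FLM_M, 19 were higher and 10 lower in FLM_G, 29 of 35 (82.9%), against 70.6% of all genes (35.5% and 35.1%), with a median of 0.46. The share called was therefore not far above the background in the last comparison. The members were also more abundant than most genes, at a median of 26.7 FPKM against 7.19 for all genes tested. Without Mgst2 and Slc7a11 the counts were 4 and 21, 12 and 17, and 17 and 10.

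Changes of at least 2-fold on the log2(FPKM + 1) scale were found for 8 members between FLM_M and BMM, none higher and 8 lower, which is 22.9% against 7.03% of all genes (3.74% higher and 3.29% lower). Of these 8, Gpx3 and Gstp1 were listed at 0 in FLM_M, so their size depends on the pseudocount. For FLM_G against BMM there were 8 higher and 9 lower (48.6%, against 18.8% of all genes, 9.84% and 8.91%). For FLM_G against FLM_M there were 11 higher and 2 lower (37.1%, against 21.4%, 11.3% and 10.2%). Without Mgst2 and Slc7a11, 6 were higher and 9 lower in FLM_G against BMM, and 9 higher and 2 lower against FLM_M. The comparisons share libraries and are not independent of each other. The scaling between libraries matters for FLM_G: with the FPKM as deposited, the median of all genes shifted by -0.34 against BMM and by -0.39 against FLM_M. All genes then split into 2081 higher and 6775 lower against BMM (4044 and 4081 with scaling), and into 2218 and 7075 against FLM_M (4246 and 4195 with scaling). Between FLM_M and BMM the split was 3323 and 2240 without scaling and 2716 and 2613 with it. For the members the split without scaling was 5 and 18, 11 and 19, and 14 and 13 in the same order of comparisons, so that the excess of higher over lower members in FLM_G against FLM_M was smaller.

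**Figure D1:**
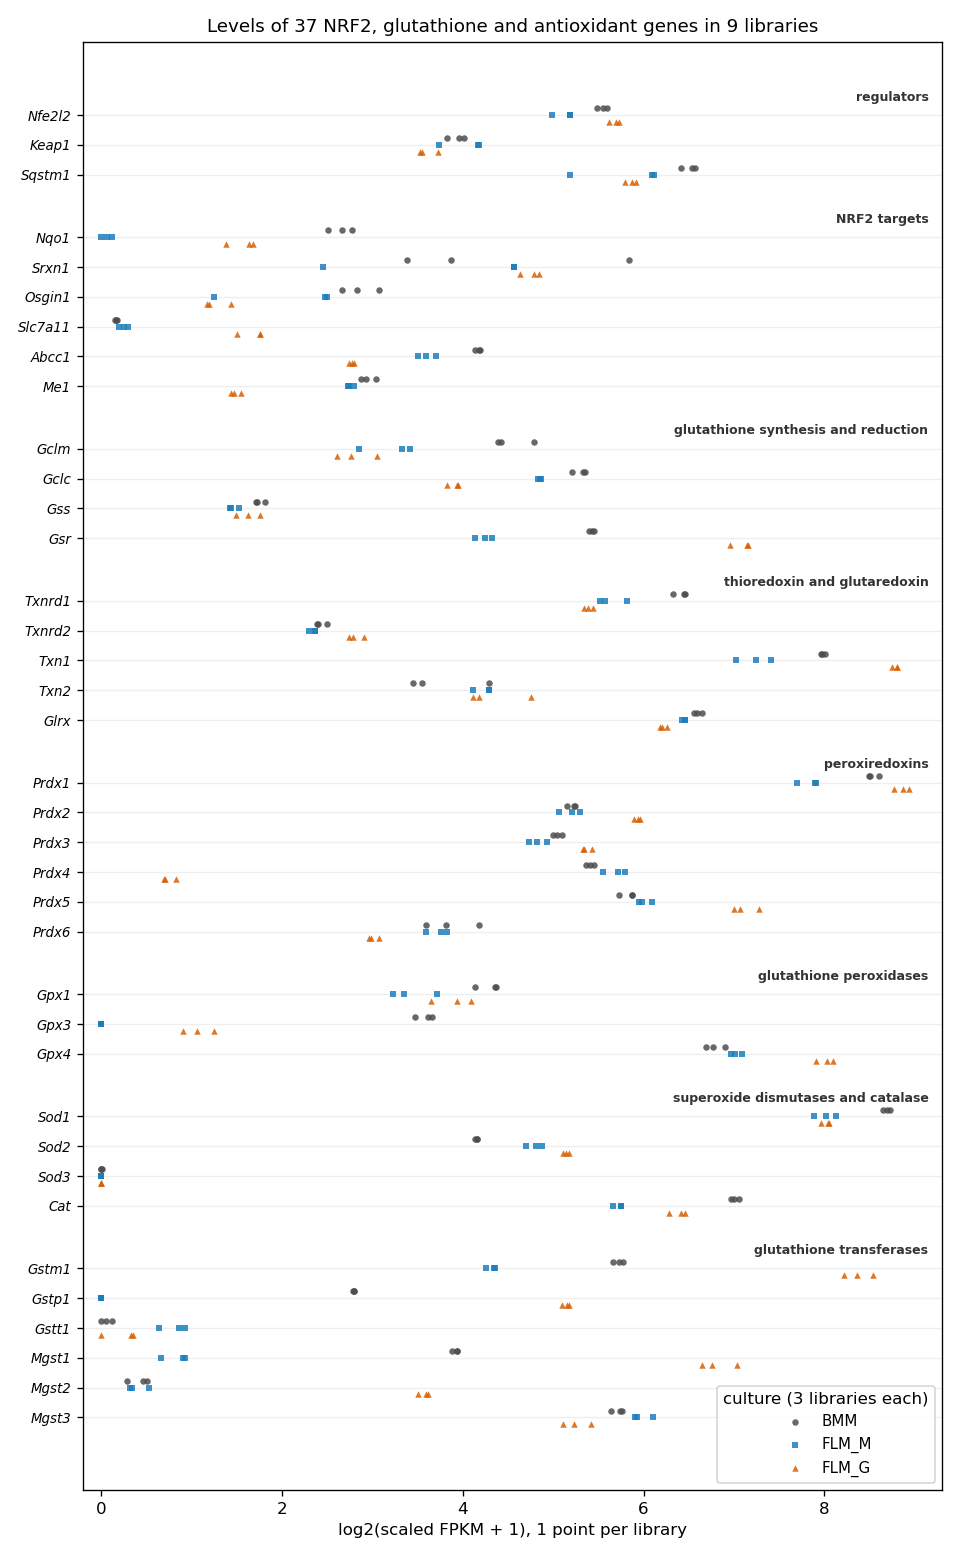
Each row is a gene, ordered by role, and each point a library at its log2(scaled FPKM + 1), with grey circles for BMM, blue squares for FLM_M and orange triangles for FLM_G (3 libraries each). The triangles lie far to the right for Gstm1, Gstp1, Mgst1 and Mgst2 and far to the left for Prdx4, while the points of Srxn1 spread widely within BMM and FLM_M.

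**Figure D2:**
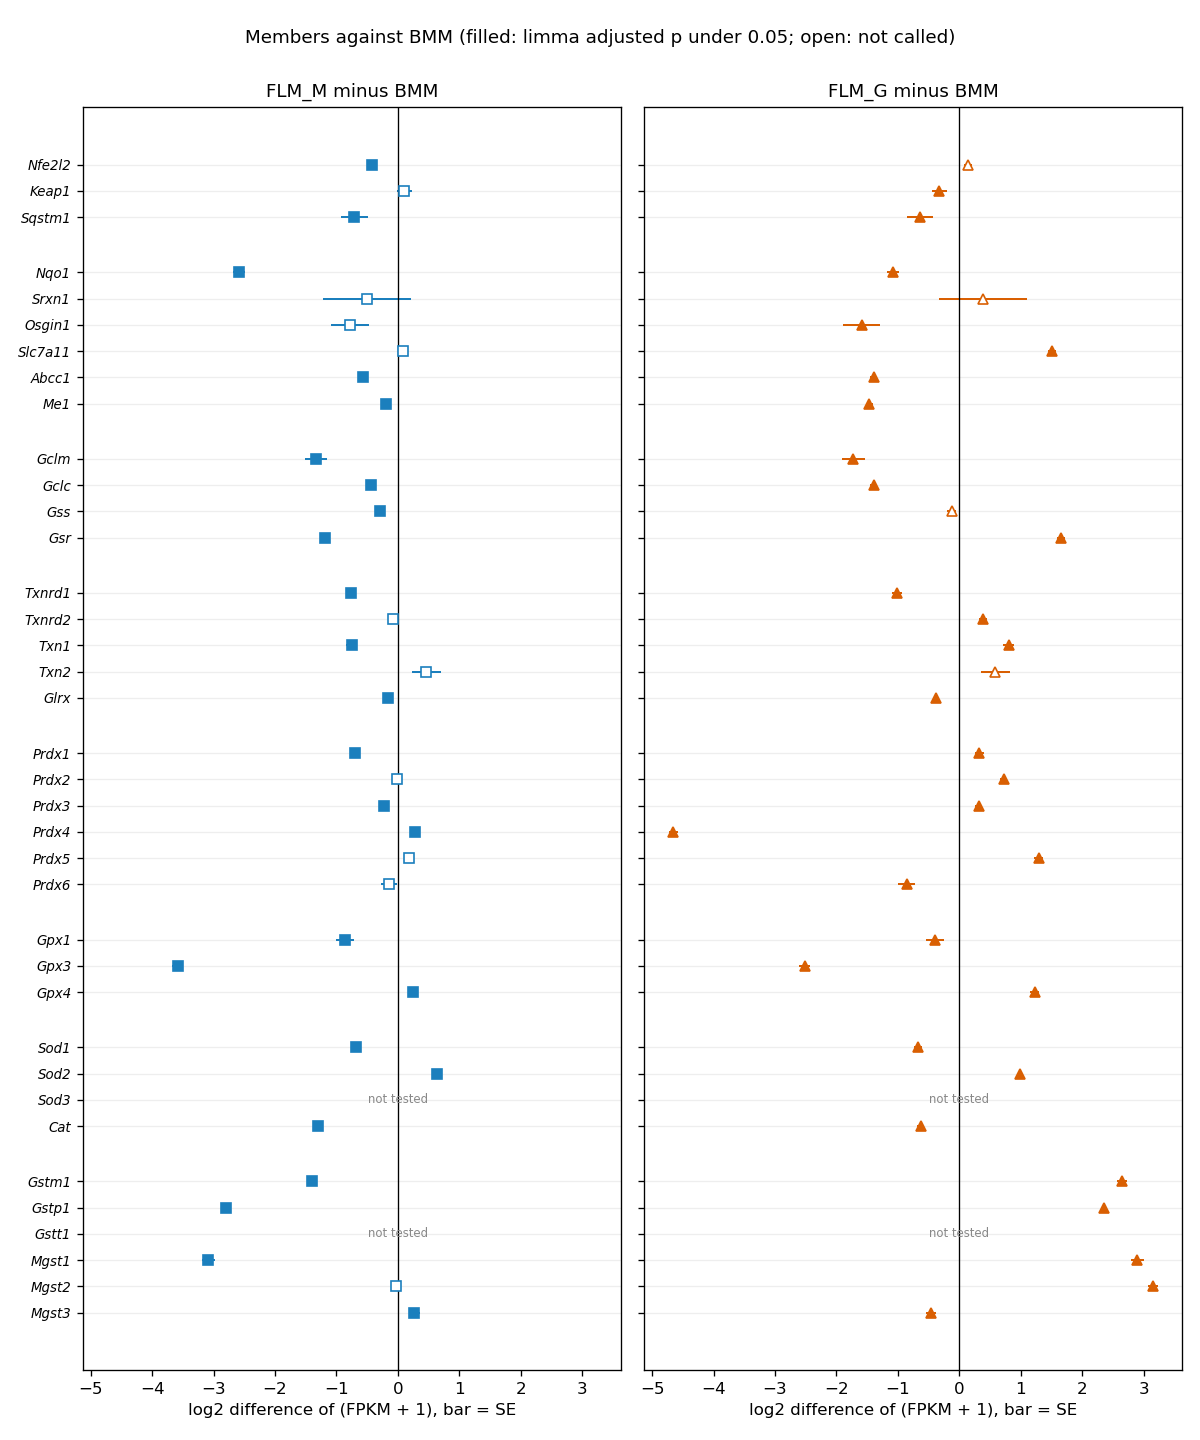
Points are the log2 differences of (scaled FPKM + 1) of FLM_M (left, blue squares) and FLM_G (right, orange triangles) from BMM, with bars of 1 SE, filled where called and open where not; both panels share the BMM libraries. Most points on the left lie below 0, while on the right 4 of the 5 transferases lie above 0, Mgst3 at -0.46 and Prdx4 at -4.66; for Gpx3 and Gstp1, listed at 0 in FLM_M, the left-hand value is set by the pseudocount, and on the right Prdx1 and Prdx3 fall below 0 without scaling.

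Among the regulators, the gene of NRF2 itself differed by less than 2-fold between the culture means. Nfe2l2 was at 47.3, 43.8 and 45.9 in BMM, 35.3, 30.7 and 35.5 in FLM_M and 52.1, 50.6 and 48.1 in FLM_G. The 3 FLM_M libraries were the lowest and did not overlap with the others. The log2 difference of FLM_M from BMM was -0.42 (SE 0.07, adjusted p = 0.000837). FLM_G lay above FLM_M (log2 difference 0.56, SE 0.07, adjusted p = 6.28e-05), a call lost without scaling (0.09, adjusted p = 0.286). Against BMM the difference of FLM_G was 0.14 (SE 0.07, adjusted p = 0.0952), and it was called without FLM_M replicate 2 (adjusted p = 0.0376) and, in the other direction, without scaling (-0.28, adjusted p = 0.00556). Keap1, which encodes the protein that holds NRF2 for degradation, was at 13.1, 14.5 and 15.2 in BMM, 12.4, 17.1 and 17.1 in FLM_M and 10.6, 12.3 and 10.7 in FLM_G. FLM_M replicate 1 lay below all BMM libraries and the others above them. Keap1 fell in FLM_G against BMM (log2 difference -0.33, SE 0.12, adjusted p = 0.041), and against FLM_M (log2 difference -0.43, SE 0.12, adjusted p = 0.0122). The first of these calls was lost without BMM replicates 2 or 3 or FLM_G replicates 1 or 3 (adjusted p 0.0885 to 0.126). The difference of FLM_M from BMM was 0.10 (SE 0.12, adjusted p = 0.54) and became a call without FLM_M replicate 1 (adjusted p 0.0399). NRF2 protein and its activity were not measured.

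Sqstm1 encodes p62, a receptor of selective autophagy that binds KEAP1. Its level was 91.4, 93.7 and 84.2 in BMM, 68.1, 35.3 and 67.0 in FLM_M and 54.6, 57.6 and 59.4 in FLM_G. FLM_M replicate 2 stood apart from the other 2 FLM_M libraries, and all FLM_M and FLM_G libraries were below BMM. Sqstm1 fell in FLM_M (log2 difference -0.71, SE 0.22, adjusted p = 0.0274) and in FLM_G (log2 difference -0.64, SE 0.22, adjusted p = 0.0274). The first call was lost without BMM replicates 1, 2 or 3, without the filter on low values, or with only the 6 libraries compared (adjusted p 0.0504 to 0.0752), and the second without BMM replicates 1 or 2 or FLM_G replicates 1, 2 or 3 (adjusted p 0.0576 to 0.0773). Between FLM_G and FLM_M the difference was 0.07 (SE 0.22, adjusted p = 0.795), and without FLM_M replicate 2 it was -0.25 (adjusted p = 0.0071), so that 1 library decided it. In the count table the fall in FLM_M against BMM was not seen, at -0.01 by edgeR (adjusted p = 0.991) and -0.10 by DESeq2 (adjusted p = 0.899). The CPM of Sqstm1 were 206.0, 208.0 and 214.0 in BMM, 241.0, 278.0 and 235.0 in FLM_M and 116.0, 138.0 and 110.0 in FLM_G, so that FLM_M replicate 2, lowest of its culture in FPKM, was its highest in counts. Sqstm1 overlaps Mrnip on the opposite strand.

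The 6 members grouped as other NRF2 targets, some of which also serve glutathione or the peroxiredoxins, fell more often than they rose. In FLM_M against BMM limma called 3 lower (50.0%, against 21.9% of all genes tested) and none higher (against 22.7%). None rose at an unadjusted p under 0.05 either. In FLM_G against BMM 4 fell (66.7%, against 34.1%) and 1 rose (16.7%, against 33.8%). The 1 that rose, Slc7a11, passed the filter only through FLM_G. With so few genes these shares are a description only. Nqo1, a quinone reductase and a standard readout of NRF2 activity, was at 4.70, 5.83 and 5.35 in BMM, 0.05, 0.09 and 0 in FLM_M and 1.61, 2.11 and 2.21 in FLM_G. It was nearly absent from FLM_M and intermediate in FLM_G, with no overlap. Its log2 difference from BMM was -2.59 (SE 0.10, adjusted p = 8.74e-08) in FLM_M and -1.08 (SE 0.10, adjusted p = 1.06e-05) in FLM_G, and FLM_G lay above FLM_M (log2 difference 1.503, SE 0.10, adjusted p = 9.65e-07). Abcc1, the pump that exports glutathione conjugates, was at 16.5, 17.2 and 17.2 in BMM, 12.04, 10.38 and 11.03 in FLM_M and 5.70, 5.94 and 5.86 in FLM_G. The cultures followed each other without overlap, BMM highest and FLM_G lowest, and all 3 differences were called: -0.57 (SE 0.06, adjusted p = 6.71e-05) for FLM_M minus BMM, -1.40 (SE 0.06, adjusted p = 6.24e-08) for FLM_G minus BMM and -0.83 (SE 0.06, adjusted p = 1.99e-06) for FLM_G minus FLM_M.

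Me1, a malic enzyme that makes NADPH and one of the genes with the strict motif, was at 7.24, 6.61 and 6.33 in BMM, 5.64, 5.69 and 5.94 in FLM_M and 1.93, 1.77 and 1.70 in FLM_G. FLM_G was the low culture, with a log2 difference from BMM of -1.46 (SE 0.06, adjusted p = 7.41e-08). In FLM_M it fell (log2 difference -0.19, SE 0.06, adjusted p = 0.0352), a call lost without BMM replicates 1 or 2, FLM_M replicates 1, 2 or 3 or FLM_G replicate 2, without scaling, or with a pseudocount of 0.1 (adjusted p 0.0508 to 0.117). Osgin1, a stress-induced growth inhibitor that also carries the strict motif, was at 6.13, 7.42 and 5.32 in BMM, 4.56, 4.66 and 1.37 in FLM_M and 1.25, 1.28 and 1.71 in FLM_G. FLM_M replicate 3 lay with FLM_G and the other FLM_M libraries lay nearer to BMM. Osgin1 fell in FLM_G against BMM (log2 difference -1.59, SE 0.31, adjusted p = 0.00164). Its difference between FLM_G and FLM_M was -0.81 (SE 0.31, adjusted p = 0.0417), a call lost without BMM replicates 1, 2 or 3, FLM_M replicates 1 or 2 or FLM_G replicates 1, 2 or 3, without the filter on low values, with only the 6 libraries compared, or under quantile normalization (adjusted p 0.0506 to 0.135). The difference of FLM_M from BMM, -0.78 (SE 0.31, adjusted p = 0.0688), became a call without FLM_M replicates 1 or 2 (adjusted p 0.0434 to 0.0474). Slc7a11, the cystine importer that feeds glutathione synthesis, was at 0.11, 0.13 and 0.12 in BMM, 0.23, 0.15 and 0.19 in FLM_M and 2.38, 2.37 and 1.84 in FLM_G. It was near 0 outside FLM_G and rose there against BMM (log2 difference 1.51, SE 0.07, adjusted p = 1.22e-07). Because Slc7a11 passed the filter only through FLM_G, this call follows in part from the filter.

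Srxn1 encodes sulfiredoxin, which restores overoxidised peroxiredoxins, and its promoter window held the strict motif. Its level was 56.2, 13.7 and 9.42 in BMM, 22.7, 22.6 and 4.50 in FLM_M and 26.6, 23.8 and 27.7 in FLM_G. BMM replicate 1 was 5.97 times BMM replicate 3, and the highest FLM_M library was 5.05 times the lowest, whereas the FLM_G libraries lay close together. None of the 3 differences was called, with log2 differences of -0.50 (SE 0.71, adjusted p = 0.61) for FLM_M minus BMM, 0.39 (SE 0.71, adjusted p = 0.649) for FLM_G minus BMM and 0.89 (SE 0.71, adjusted p = 0.291) for FLM_G minus FLM_M. No call arose when any library was left out. In the separate count table, Srxn1 had 16, 19 and 21 counts in BMM, 23, 27 and 17 in FLM_M and 17, 17 and 2 in FLM_G. As CPM, counts scaled to the library total, these were 18.5, 20.5 and 20.2, then 19.6, 25.0 and 14.5, then 19.5, 18.3 and 2.56. The counts of Srxn1 were even in BMM, where its FPKM were not. FLM_G replicate 3 stood apart in the count table as a whole: of 29 members with a mean of at least 5 CPM, 13 were there under 0.5 times the lower of the other FLM_G libraries, and so were 34.1% of all 9130 such genes, against 0.811 to 8.19% in each of the other libraries. Of 85 combinations of member and culture with a mean of at least 5 FPKM, the highest library exceeded 2 times the lowest only in these 2 of Srxn1. It exceeded 1.5 times in 7, and the median coefficient of variation was 6.09%.

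**Figure D3:**
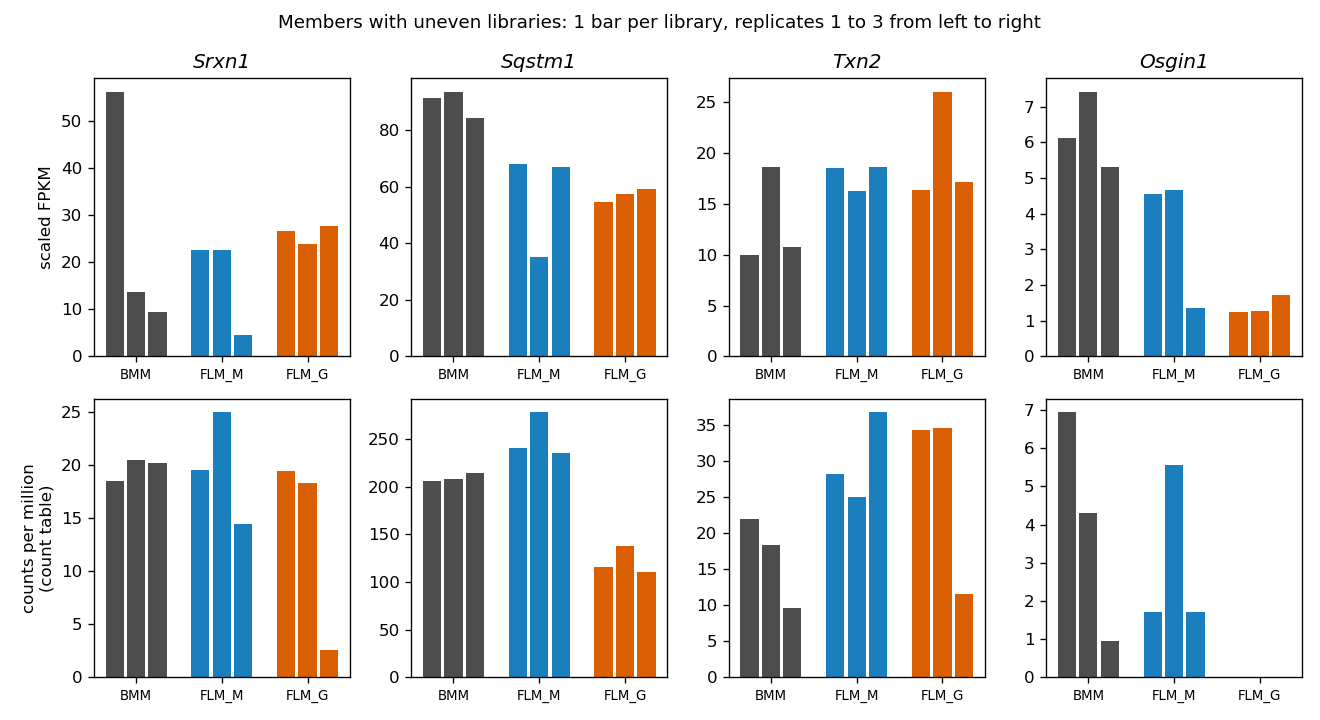
Bars are single libraries, replicates 1 to 3 from left to right within each culture, as scaled FPKM (top) and as CPM of the count table (bottom) for Srxn1, Sqstm1, Txn2 and Osgin1. The FPKM of Srxn1 are uneven in BMM (9.42 to 56.2) and FLM_M (4.50 to 22.7), where its CPM run from 18.5 to 20.5 and from 14.5 to 25.0.

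The ligase subunits of glutathione synthesis fell in both fetal liver cultures, while the reductase fell in one and rose in the other. All 4 members of this role fell in FLM_M against BMM, where 21.9% of all genes tested fell. In FLM_G against BMM 2 fell (50.0%, against 34.1%), 1 rose (25.0%, against 33.8%) and 1 was not called. Gclc, the catalytic subunit of the rate-limiting enzyme, was at 36.1, 39.7 and 39.2 in BMM, 28.2, 27.9 and 27.4 in FLM_M and 14.3, 14.4 and 13.2 in FLM_G. The cultures did not overlap, with BMM highest and FLM_G lowest. Gclc fell in FLM_M (log2 difference -0.45, SE 0.05, adjusted p = 0.00018) and in FLM_G (log2 difference -1.39, SE 0.05, adjusted p = 3.54e-08). Gclm, the modifier subunit of the same enzyme, was at 20.0, 20.4 and 26.5 in BMM, 9.72, 6.21 and 9.03 in FLM_M and 7.32, 5.11 and 5.77 in FLM_G. All BMM libraries lay above 20 and all others below 10, with log2 differences of -1.33 (SE 0.18, adjusted p = 0.000364) in FLM_M and -1.72 (SE 0.18, adjusted p = 3.23e-05) in FLM_G. FLM_G and FLM_M overlapped for Gclm, and their difference of -0.39 (SE 0.18, adjusted p = 0.081) became a call without FLM_M replicate 2 or FLM_G replicate 1, or without scaling (adjusted p 0.00291 to 0.046). Gss, glutathione synthetase, was low, at 2.31, 2.51 and 2.28 in BMM, 1.70, 1.88 and 1.68 in FLM_M and 1.82, 2.09 and 2.39 in FLM_G. It fell in FLM_M (log2 difference -0.29, SE 0.07, adjusted p = 0.012), a call lost without FLM_M replicate 3 (adjusted p 0.0506). The other differences of Gss were -0.12 (SE 0.07, adjusted p = 0.171) for FLM_G minus BMM, called without scaling (adjusted p = 0.00062), and 0.17 (SE 0.07, adjusted p = 0.0707) for FLM_G minus FLM_M, called without FLM_G replicate 1, or under quantile normalization (adjusted p 0.0132 to 0.0403). Gss overlaps Acss2 on the opposite strand. In the count table FLM_G was called above BMM, at 2.05 by edgeR (adjusted p = 0.000625) and 2.02 by DESeq2 (adjusted p = 0.0147). It was also called above FLM_M there (1.935 by edgeR, adjusted p = 0.000299). The cause was not tested.

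Gsr (chr8:33652523-33698163, GRCm38, plus strand), the reductase that regenerates glutathione with NADPH, was at 41.1, 42.1 and 42.8 in BMM, 17.9, 16.6 and 19.1 in FLM_M and 140.0, 141 and 123 in FLM_G. FLM_G was highest and FLM_M lowest, without overlap. The log2 differences were -1.19 (SE 0.07, adjusted p = 1.23e-06) for FLM_M minus BMM, 1.66 (SE 0.07, adjusted p = 4.95e-08) for FLM_G minus BMM and 2.85 (SE 0.07, adjusted p = 1.21e-09) for FLM_G minus FLM_M. In FLM_G the ligase subunits Gclc and Gclm had their lowest means while Gsr had its highest.

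In the thioredoxin system the thiol protein and its reductase moved apart in FLM_G. Of 5 members, 3 fell (60.0%, against 21.9% of all genes tested) and none rose (against 22.7%) in FLM_M against BMM by limma. None rose at an unadjusted p under 0.05 either. In FLM_G against BMM 2 rose and 2 fell (40.0% each), near the shares of all genes (33.8% and 34.1%). Txn1, cytosolic thioredoxin, was at 249.8, 249 and 255 in BMM, 129, 169 and 151 in FLM_M and 428, 445 and 444 in FLM_G. FLM_G was highest and FLM_M lowest, without overlap, with log2 differences from BMM of -0.75 (SE 0.09, adjusted p = 0.000148) in FLM_M and 0.80 (SE 0.09, adjusted p = 4.43e-05) in FLM_G. Txnrd1, the cytosolic thioredoxin reductase and an NRF2 target, was at 86.7, 86.3 and 78.9 in BMM, 55.5, 44.9 and 46.7 in FLM_M and 39.6, 42.4 and 40.9 in FLM_G. It fell in FLM_M (log2 difference -0.77, SE 0.08, adjusted p = 7.46e-05) and in FLM_G (log2 difference -1.02, SE 0.08, adjusted p = 4.99e-06). Between FLM_G and FLM_M the difference of Txnrd1 was -0.25 (SE 0.08, adjusted p = 0.0215), a call lost without FLM_G replicates 1 or 3 (adjusted p 0.0667 to 0.0832).

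The mitochondrial partners were lower in level. Txn2 was at 9.97, 18.6 and 10.8 in BMM, 18.5, 16.3 and 18.6 in FLM_M and 16.3, 26.0 and 17.1 in FLM_G, with BMM replicate 2 and FLM_G replicate 2 standing above the others of their cultures. It was called in no comparison, with differences of 0.47 (SE 0.24, adjusted p = 0.146) in FLM_M and 0.58 (SE 0.24, adjusted p = 0.0541) in FLM_G against BMM. These became calls without BMM replicate 2 (adjusted p 0.017) in FLM_M and without BMM replicate 2 or FLM_G replicate 1, or with a filter of 5 FPKM (adjusted p 0.00478 to 0.0486) in FLM_G. Txnrd2, the mitochondrial thioredoxin reductase, was at 4.26, 4.22 and 4.67 in BMM, 3.92, 4.16 and 4.16 in FLM_M and 5.68, 6.49 and 5.90 in FLM_G. It rose in FLM_G against BMM (log2 difference 0.38, SE 0.06, adjusted p = 0.000673) and against FLM_M (log2 difference 0.47, SE 0.06, adjusted p = 0.00017), and both calls were lost without scaling (0.03, adjusted p = 0.703, and 0.06, adjusted p = 0.391). Glrx, glutaredoxin, which removes glutathione from proteins, was at 99.0, 95.7 and 93.5 in BMM, 86.9, 86.7 and 84.7 in FLM_M and 72.6, 71.7 and 75.8 in FLM_G. The order BMM, FLM_M, FLM_G held without overlap but over a narrow range, with log2 differences from BMM of -0.16 (SE 0.04, adjusted p = 0.0151) and -0.38 (SE 0.04, adjusted p = 4.21e-05). The call in FLM_M was lost without BMM replicate 1 or FLM_M replicate 3, or without scaling (adjusted p 0.0535 to 0.105).

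The peroxiredoxins reduce hydrogen peroxide and depend on thioredoxin, except for Prdx6. In FLM_M against BMM, 1 of 6 rose (16.7%, against 22.7% of all genes tested) and 2 fell (33.3%, against 21.9%). In FLM_G against BMM 4 rose (66.7%, against 33.8%) and 2 fell (33.3%, against 34.1%). The FLM_G rises of Prdx1 and Prdx3 turned negative without scaling. Prdx4 (chrX:155323918-155340754, GRCm38, minus strand), the form of the endoplasmic reticulum, had the widest gap of the 6. It was at 42.7, 41.4 and 40.0 in BMM, 46.0, 54.5 and 51.5 in FLM_M and 0.63, 0.78 and 0.62 in FLM_G. All FLM_G libraries were below 1, while all BMM and FLM_M libraries were at 40.0 or more. Its log2 difference was -4.66 (SE 0.07, adjusted p = 1.09e-10) for FLM_G minus BMM and -4.94 (SE 0.07, adjusted p = 6.41e-11) for FLM_G minus FLM_M. In FLM_M it was above BMM (log2 difference 0.28, SE 0.07, adjusted p = 0.0114), a call lost without BMM replicate 3 (adjusted p 0.0511). The gap of FLM_G was narrower in the count table. There the CPM of Prdx4 were 15.0, 16.2 and 20.2 in BMM, 31.6, 26.0 and 20.5 in FLM_M and 2.29, 5.39 and 10.2 in FLM_G. DESeq2 did not call FLM_G against BMM on these counts (log2 difference -1.32, adjusted p = 0.0982).

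Prdx1, a cytosolic form, an NRF2 target and one of the genes with the strict motif, was at 387, 359 and 362 in BMM, 206, 238 and 238 in FLM_M and 465, 489 and 434 in FLM_G. FLM_M lay below the others without overlap. It fell against BMM (log2 difference -0.70, SE 0.07, adjusted p = 7.71e-05). FLM_G rose above FLM_M (log2 difference 1.02, SE 0.07, adjusted p = 2.29e-06) and above BMM (log2 difference 0.32, SE 0.07, adjusted p = 0.0041). The last difference changed sign without scaling (-0.10, adjusted p = 0.252) and with quantile normalization (-0.18, adjusted p = 0.0363). Prdx2, the other cytosolic form, was at 36.7, 34.6 and 36.6 in BMM, 32.5, 38.4 and 36.0 in FLM_M and 61.1, 58.4 and 60.2 in FLM_G. BMM and FLM_M overlapped (log2 difference -0.02, SE 0.06, adjusted p = 0.858) and FLM_G rose above BMM (log2 difference 0.72, SE 0.06, adjusted p = 9.06e-06). Prdx3, the mitochondrial form, was at 33.3, 31.1 and 32.0 in BMM, 25.6, 29.5 and 27.3 in FLM_M and 42.0, 39.5 and 39.1 in FLM_G. It fell in FLM_M (log2 difference -0.22, SE 0.06, adjusted p = 0.0162), a call lost without BMM replicate 1 or FLM_M replicates 1 or 3, or without scaling (adjusted p 0.0543 to 0.0638). It rose in FLM_G against BMM (log2 difference 0.32, SE 0.06, adjusted p = 0.00149) and against FLM_M (log2 difference 0.54, SE 0.06, adjusted p = 4.62e-05); without scaling these differences were -0.10 (adjusted p = 0.187) and 0.06 (adjusted p = 0.375).

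Prdx5, found in mitochondria, peroxisomes and cytosol, was at 57.6, 57.4 and 52.1 in BMM, 60.7, 67.3 and 62.3 in FLM_M and 154, 127 and 133 in FLM_G. FLM_G stood well above the others, without overlap, and rose against BMM (log2 difference 1.29, SE 0.08, adjusted p = 8.92e-07). The difference of FLM_M from BMM was 0.18 (SE 0.08, adjusted p = 0.0937), which became a call without FLM_G replicate 1, or without scaling (adjusted p 0.0369 to 0.0414). Prdx5 overlaps Trmt112 on the opposite strand, and in the count table its difference of FLM_M from BMM had the other sign (-1.10 by edgeR, adjusted p = 0.00125). Its rise in FLM_G against BMM was not called there, at 0.07 by edgeR (adjusted p = 0.88) and 0.03 by DESeq2 (adjusted p = 0.973), and without FLM_G replicate 3 the edgeR value was -0.26 (adjusted p = 0.234). Prdx6, which uses glutathione instead of thioredoxin, was at 17.1, 13.1 and 11.1 in BMM, 12.5, 11.1 and 13.1 in FLM_M and 7.41, 6.80 and 6.92 in FLM_G. It fell in FLM_G against BMM (log2 difference -0.86, SE 0.13, adjusted p = 0.00044) and against FLM_M (log2 difference -0.72, SE 0.13, adjusted p = 0.00115). BMM and FLM_M overlapped for Prdx6 (log2 difference -0.14, SE 0.13, adjusted p = 0.433).

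The 3 glutathione peroxidases went different ways. Gpx4, which reduces lipid hydroperoxides in membranes and so guards against ferroptosis, was at 102, 108 and 118 in BMM, 124, 135 and 128 in FLM_M and 239, 259 and 273 in FLM_G. All FLM_G libraries lay above those of the other cultures, and the log2 difference was 1.22 (SE 0.07, adjusted p = 5.56e-07) against BMM and 0.99 (SE 0.07, adjusted p = 2.2e-06) against FLM_M. FLM_M exceeded BMM (log2 difference 0.24, SE 0.07, adjusted p = 0.0235), a call lost without BMM replicates 1 or 2 or FLM_M replicates 2 or 3 (adjusted p 0.0538 to 0.0924). Gpx3 (chr11:54902453-54910377, GRCm38, plus strand), a secreted form, was at 10.1, 11.3 and 11.6 in BMM, 0, 0 and 0 in FLM_M and 1.08, 0.87 and 1.38 in FLM_G. It was listed at 0 in all FLM_M libraries, so no fold is given there (adjusted p = 8.1e-09 against BMM). In FLM_G it was below BMM (log2 difference -2.51, SE 0.09, adjusted p = 2.2e-08). The count table did not show these falls. There Gpx3 had 8, 5 and 8 counts in BMM, 7, 1 and 8 in FLM_M and 8, 13 and 13 in FLM_G. By DESeq2 the differences from BMM were -1.05 in FLM_M (adjusted p = 0.492) and 1.06 in FLM_G (adjusted p = 0.31). The cause was not tested. Gpx1, the common form of cytosol and mitochondria, was at 16.6, 19.6 and 19.5 in BMM, 9.19, 12.1 and 8.36 in FLM_M and 11.6, 14.3 and 16.0 in FLM_G. It fell in FLM_M (log2 difference -0.86, SE 0.15, adjusted p = 0.00159). In FLM_G it fell against BMM (log2 difference -0.40, SE 0.15, adjusted p = 0.0415), a call lost without BMM replicates 2 or 3, FLM_M replicate 1 or FLM_G replicates 1 or 2 (adjusted p 0.0522 to 0.158). Against FLM_M the difference was 0.46 (SE 0.15, adjusted p = 0.0207), lost without FLM_M replicates 1 or 3 or FLM_G replicate 3, or without scaling (adjusted p 0.0608 to 0.936).

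Superoxide dismutases turn superoxide into peroxide, and catalase breaks peroxide down. Sod1, the copper and zinc form of the cytosol, was at 399, 412 and 423 in BMM, 236, 278 and 258 in FLM_M and 263, 248 and 261 in FLM_G. Both fetal liver cultures lay below BMM without overlap, with log2 differences of -0.68 (SE 0.07, adjusted p = 4.16e-05) in FLM_M and -0.67 (SE 0.07, adjusted p = 1.88e-05) in FLM_G. They overlapped with each other (log2 difference 0.00, SE 0.07, adjusted p = 0.977), although without scaling FLM_G was below FLM_M (log2 difference -0.48, adjusted p = 9.94e-05). Sod2, the manganese form of mitochondria, went the other way, at 16.6, 16.8 and 16.9 in BMM, 25.0, 27.0 and 28.3 in FLM_M and 34.4, 35.0 and 33.5 in FLM_G. The 3 cultures did not overlap. It rose in FLM_M (log2 difference 0.64, SE 0.05, adjusted p = 1.2e-05) and in FLM_G (log2 difference 0.99, SE 0.05, adjusted p = 2.53e-07). FLM_G was above FLM_M (log2 difference 0.35, SE 0.05, adjusted p = 0.000266), which turned to -0.12 (adjusted p = 0.0477) without scaling. Cat, the peroxisomal catalase, was at 127, 132 and 124 in BMM, 52.7, 49.5 and 52.7 in FLM_M and 76.7, 84.2 and 87.1 in FLM_G. BMM was highest and FLM_M lowest, without overlap, with differences from BMM of -1.29 (SE 0.06, adjusted p = 2.49e-07) in FLM_M and -0.62 (SE 0.06, adjusted p = 1.36e-05) in FLM_G, and of 0.67 (SE 0.06, adjusted p = 7.56e-06) between FLM_G and FLM_M.

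The glutathione transferases, which attach glutathione to electrophiles, held the 4 largest log2(FPKM + 1) rises of the tested members in FLM_G against BMM. The largest was that of Mgst2, which passed the filter only through FLM_G. This ranking depends on the pseudocount. As a ratio of means Slc7a11, which also passed only through FLM_G, rose more (18.0) than Mgst1 (7.94), Gstm1 (6.39) or Gstp1 (5.79). In FLM_G against BMM, 4 of 5 transferases tested rose (80.0%, against 33.8% of all genes) and 1 fell (20.0%, against 34.1%). The split was the same against FLM_M, where 35.5% of all genes rose and 35.1% fell. Mgst2 was 1 of the 4 that rose. In FLM_M against BMM, 3 fell (60.0%, against 21.9%) and 1 rose (20.0%, against 22.7%). Gstm1, of the mu class, was at 49.8, 52.0 and 53.6 in BMM, 18.1, 19.3 and 19.5 in FLM_M and 297, 327 and 369 in FLM_G. FLM_G exceeded BMM (log2 difference 2.65, SE 0.08, adjusted p = 5.85e-09) and FLM_M (log2 difference 4.05, SE 0.08, adjusted p = 3.06e-10), and FLM_M was below BMM (log2 difference -1.40, SE 0.08, adjusted p = 1.05e-06). Gstp1 (chr19:4035407-4037985, GRCm38, minus strand), of the pi class and also with the strict motif, was at 5.93, 5.89 and 5.93 in BMM, 0, 0 and 0 in FLM_M and 34.5, 33.2 and 35.1 in FLM_G. It rose in FLM_G against BMM (log2 difference 2.35, SE 0.05, adjusted p = 5.26e-10). It was listed at 0 in the 3 FLM_M libraries, so no fold is given against them (adjusted p = 9.7e-10 for FLM_M minus BMM and 6.89e-12 for FLM_G minus FLM_M). Both genes have near-identical copies that may share reads. The copy Gstp2 stood at 0 in every culture. Of the mu copies, Gstm2 averaged 0.84 in BMM, 0.75 in FLM_M and 3.87 in FLM_G, Gstm4 3.53, 3.99 and 11.9, and Gstm5 2.67, 6.25 and 1.80.

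Mgst1 (chr6:138140316-138156755, GRCm38, plus strand) encodes a transferase of the endoplasmic reticulum and outer mitochondrial membrane. It was at 14.3, 14.3 and 13.8 in BMM, 0.58, 0.90 and 0.88 in FLM_M and 130.1, 99.2 and 107 in FLM_G. The cultures were separated widely, with FLM_M below 1 and FLM_G near or above 100, and log2 differences of -3.08 (SE 0.11, adjusted p = 5.79e-08) for FLM_M minus BMM, 2.89 (SE 0.11, adjusted p = 2.71e-08) for FLM_G minus BMM and 5.98 (SE 0.11, adjusted p = 2.14e-10) for FLM_G minus FLM_M. Mgst2, a relative that can also make leukotriene C4, was at 0.22, 0.42 and 0.38 in BMM, 0.27, 0.44 and 0.25 in FLM_M and 11.2, 11.1 and 10.3 in FLM_G. It was detected above 1 FPKM only in FLM_G, which exceeded BMM (log2 difference 3.15, SE 0.08, adjusted p = 2.37e-09). That call follows in part from the filter. BMM and FLM_M overlapped, with a difference of -0.03 (SE 0.08, adjusted p = 0.828). Mgst3 had the opposite order, at 48.9, 52.4 and 53.3 in BMM, 59.9, 68.0 and 59.1 in FLM_M and 33.4, 36.6 and 41.8 in FLM_G. FLM_G lay below BMM (log2 difference -0.46, SE 0.09, adjusted p = 0.0015) and below FLM_M (log2 difference -0.73, SE 0.09, adjusted p = 7.5e-05). FLM_M exceeded BMM (log2 difference 0.27, SE 0.09, adjusted p = 0.0355), a call lost without BMM replicates 1, 2 or 3, FLM_M replicate 2 or FLM_G replicate 2, or without the filter on low values (adjusted p 0.053 to 0.119). Gstt1, of the theta class, was not tested and reached 0.56, 0.82 and 0.91 in FLM_M, with 0.28 or less elsewhere.

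Summed over roles, the transferases differed most between BMM and FLM_G. They summed to 123.8 ± 4.0 FPKM in BMM, 83.2 ± 5.5 in FLM_M and 525.9 ± 33.2 in FLM_G (SD, n = 3). Glutathione synthesis and reduction summed to 105.0 ± 5.6, 55.8 ± 2.8 and 157.0 ± 10.6, of which Gsr made up most in FLM_G. Superoxide dismutases and catalase summed to 555.8 ± 11.2 in BMM, 335.9 ± 20.7 in FLM_M and 374.4 ± 7.5 in FLM_G, the last 2 in the opposite order without scaling (381.5 and 303.3). All members together summed to 2132.1 ± 22.6, 1480.7 ± 55.0 and 2774.8 ± 27.6. As deposited, without scaling, these sums averaged 2317.3 in BMM, 1681.7 in FLM_M and 2247.6 in FLM_G, so that FLM_M was lowest either way while the order of BMM and FLM_G depended on the scaling.

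**Figure D4:**
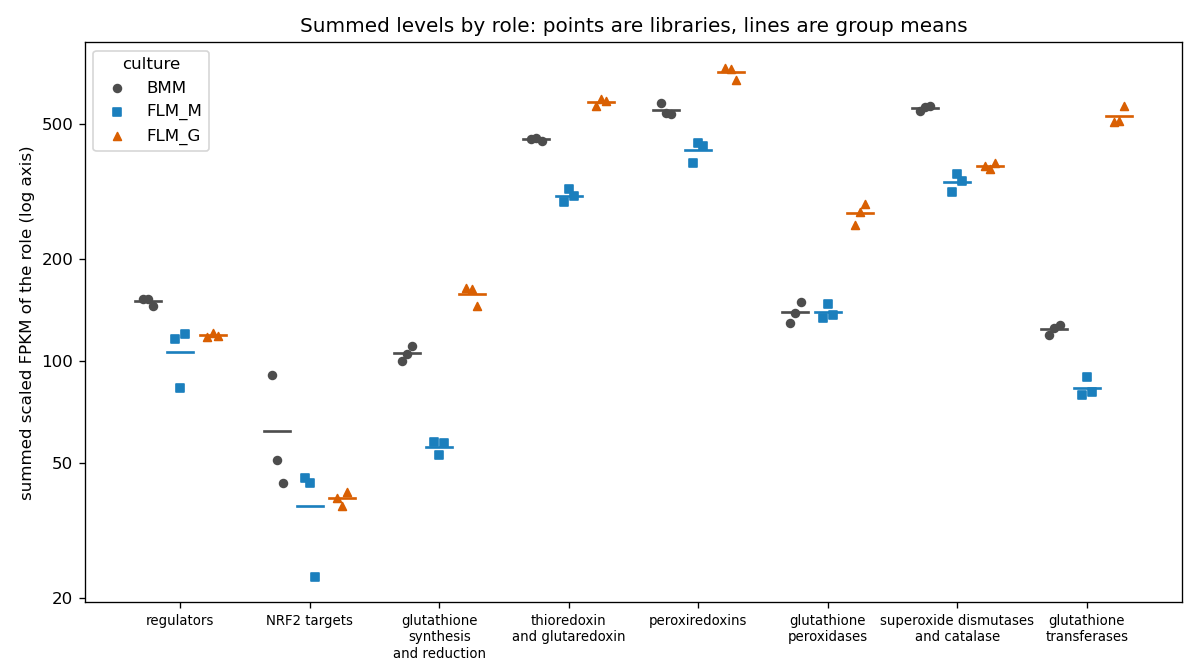
Points are libraries and short lines group means of the scaled FPKM summed over the members of each role, on a log axis (grey circles BMM, blue squares FLM_M, orange triangles FLM_G). The transferases of FLM_G lie at 506.2 to 564.2 against 79.4 to 127.0 in the other libraries; the order of BMM and FLM_G for the thioredoxin and peroxiredoxin sums, and that of FLM_M and FLM_G for regulators, NRF2 targets and dismutases with catalase, turns around without scaling.

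Over all 37 members, BMM had the highest mean for 17, FLM_G for 16 and FLM_M for 4, and FLM_M had the lowest mean for 18. Of the 35 tested, 20 (57.1%) were called in all 3 comparisons, against 27.9% of all genes tested, and 2, Srxn1 and Txn2, in none (5.71%, against 17.4%). Against the shared BMM libraries, 12 members (34.3%, against 9.75% of all genes) fell in both fetal liver cultures: Abcc1, Cat, Gclc, Gclm, Glrx, Gpx1, Gpx3, Me1, Nqo1, Sod1, Sqstm1 and Txnrd1. A set of 7 (20.0%, against 7.46%) fell in FLM_M and rose in FLM_G, namely Gsr, Gstm1, Gstp1, Mgst1, Prdx1, Prdx3 and Txn1, with the rises of Prdx1 and Prdx3 turning negative without scaling. Gpx4 and Sod2 rose in both (5.71%, against 8.48%), and Mgst3 and Prdx4 rose in FLM_M and fell in FLM_G (5.71%, against 8.43%). The 5 genes with the strict motif in the promoter windows were spread over these patterns: Me1 fell in both cultures, Prdx1 and Gstp1 fell in FLM_M and rose in FLM_G, Osgin1 fell in FLM_G and was not called in FLM_M, and Srxn1 was not called.

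Other genes of the same systems, 94 in a separate list, were counted in the same way. Of these, 93 were found and 73 were tested. Between FLM_M and BMM 13 rose and 31 fell (median log2 difference -0.06), between FLM_G and BMM 36 rose and 28 fell (0.17), and between FLM_G and FLM_M 39 rose and 23 fell (0.19). The rises in FLM_G include genes that passed the filter only through FLM_G, such as Nfe2 and Sesn3. Their means were 0.18 and 0.78 in BMM, 0 in FLM_M, and 7.68 and 1.69 in FLM_G. Such calls follow in part from the filter, and the counts were not repeated without them. Of all genes tested, 22.7% rose and 21.9% fell in the first comparison, 33.8% and 34.1% in the second and 35.5% and 35.1% in the third. Among 7 genes listed under NADPH, 6 fell in FLM_M against BMM (G6pdx, Pgd, Taldo1, Tkt, Idh1 and Idh2) and Nnt was not called. Taldo1 and Tkt do not make NADPH themselves. In FLM_G against BMM 4 of the 7 rose (Pgd, Taldo1, Tkt and Idh1). The 2 that fell were G6pdx (-0.37, SE 0.04, adjusted p = 8.24e-05) and Idh2 (-1.12, SE 0.04, adjusted p = 4.49e-08). Against FLM_M 5 rose and 1 fell. Idh1, the cytosolic NADP-dependent isocitrate dehydrogenase, was at 41.5, 38.3 and 39.0 in BMM, 18.4, 18.4 and 19.7 in FLM_M and 119, 112 and 110.4 in FLM_G. It followed the order of Gsr, and FLM_G exceeded FLM_M (log2 difference 2.54, SE 0.05, adjusted p = 4.6e-10).

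The NRF2 and heme target Hmox1, which breaks down heme, was at 730.4, 776 and 734 in BMM, 482, 523 and 459 in FLM_M and 154, 178 and 185 in FLM_G. It fell in FLM_G against BMM (log2 difference -2.11, SE 0.08, adjusted p = 2.94e-08) and in FLM_M (log2 difference -0.61, SE 0.08, adjusted p = 0.000278). Gsto1, a transferase of the omega class, was at 38.0, 39.0 and 39.0 in BMM, 18.5, 20.9 and 19.7 in FLM_M and 129, 127 and 136 in FLM_G and was higher in FLM_G than in FLM_M (log2 difference 2.67, SE 0.05, adjusted p = 3.72e-10). Msrb1, a selenoenzyme that repairs oxidised methionine, was at 76.2, 73.6 and 80.9 in BMM, 72.4, 71.4 and 69.9 in FLM_M and 379, 452 and 482 in FLM_G. FLM_G stood apart and rose against BMM (log2 difference 2.49, SE 0.08, adjusted p = 1.47e-08), while BMM and FLM_M were not called apart (adjusted p = 0.334). Sesn1, a sestrin that responds to stress and p53, was at 24.6, 22.5 and 25.0 in BMM, 12.2, 11.3 and 12.8 in FLM_M and 3.63, 4.08 and 3.89 in FLM_G and fell in FLM_G against BMM (log2 difference -2.36, SE 0.07, adjusted p = 4.88e-09). Abcc3, a conjugate exporter related to Abcc1, was at 24.9, 25.6 and 24.7 in BMM, 0.04, 0.02 and 0 in FLM_M and 2.26, 2.37 and 2.34 in FLM_G, and fell in both cultures (-4.68, SE 0.05, adjusted p = 3.95e-10, and -2.97, SE 0.05, adjusted p = 1.3e-10).

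The count table held far fewer reads than the FPKM imply. Its libraries summed to 782400 to 1170813 counts, a median of 0.69% of the reads implied by the FPKM in 6594 protein-coding genes and 0.58% in 28 members, and 36.1% of its counts lay in genes under 0.5 FPKM. edgeR could test 26 members on it and called 1 higher and 7 lower in FLM_M against BMM, where it called 17.4% of all genes (9.49% higher and 7.86% lower). In FLM_G it called 9 and 5 against BMM, with 32.8% of all genes (17.2% and 15.6%), and 10 and 4 against FLM_M, with 38.1% (19.0% and 19.1%). DESeq2 called 0 higher and 3 lower in FLM_M against BMM (2 and 7 at an unadjusted p under 0.05), where it called 6.40% of all genes (2.62% and 3.79%). In FLM_G it called 9 and 5 against BMM, with 17.0% of all genes (9.0% and 8.04%), and 10 and 3 against FLM_M, with 19.8% (11.3% and 8.49%). Of the differences called on the FPKM, 85 in all, edgeR tested 61 on the counts and called 31 of them with the same sign, while 26 had the same sign without a call and 4 the other sign. Without FLM_G replicate 3, a choice made after seeing the data, it tested 67 and called 39 with the same sign, while 20 had the same sign without a call and 8 the other sign. DESeq2 tested 83 of the 85 and called 27 with the same sign, while 50 had the same sign without a call and 6 the other sign. Without FLM_G replicate 3 DESeq2 tested 84, and these numbers were 29, 48 and 7. The share of implied reads ranged from 0.11 to 8.93% over the 28 members. Among members that overlap a protein-coding gene on the opposite strand it was 3.88% for Prdx5, 2.58% for Sqstm1, 0.56% for Prdx2 and 0.22% for Sod1, and it was 8.93% for Gpx1 and 3.12% for Gpx3, which have no such overlap. The labels do not say whether the counting used strand, so reads of overlapping genes cannot be told apart.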

How the data were processed

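RNA of 9 cultured macrophage libraries (3 each of BMM, FLM_M and FLM_G) was read for 101 cycles. The submitters' processing notes name mm10 and GRCm38 as builds, and as tools HISAT2, StringTie, cutadapt, FastQC, bcl2fastq and DESeq2. Versions, and which tool made which table, are not given in the sources used here. The authors deposited FPKM per gene, normalized for gene length and library size, and a table of whole-number read counts per gene without normalization. The FPKM and not the counts were the main measure, since the count table held a median of 0.69% of the reads that the FPKM imply.

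FPKM were scaled between libraries by dividing them by TMM factors (edgeR 4.0.16, factors of 0.8 to 1.14). A gene was kept if 3 or more libraries had at least 1 FPKM, which left 11952 genes. Their log2(FPKM + 1) was fitted in R 4.3.3 by limma 3.58.1 with an intensity trend and a mean for each culture, on 6 residual degrees of freedom. P-values were adjusted by Benjamini and Hochberg over all genes kept, and 0.05 was the threshold. The limma, edgeR and DESeq2 fits were tried on simulated data. The alternatives were other scalings, filters and pseudocounts, fits of the 6 libraries of a comparison alone, a block for replicate number, each library left out, and edgeR or DESeq2 1.42.0 on the counts. Quantile normalization, and the counts without FLM_G replicate 3, were added after seeing the data.

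Values are given for each member with a mean of at least 5 FPKM in a culture or called in a comparison, and for other pathway genes called with a change of at least 4-fold and a mean of at least 20 FPKM in the higher culture. The NADPH genes were named after their values were seen. The members and lists were chosen with earlier results of these data known. Gene positions are from GENCODE M21 (GRCm38), which holds 45143 of the table's 46078 identifiers, and promoter sequences are from RefSeq (GRCm38.p6).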

Additional observations from a re-analysis of the deposited data

How the results depend on the processing

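With RLE or upper-quartile scaling all 105 member differences kept their side of the threshold and, except for the uncalled difference of Sod1 between FLM_G and FLM_M (-0.046 with upper-quartile scaling), their direction. Without scaling the sign changed for Nfe2l2 (-0.278), Prdx3 (-0.097) and Prdx1 (-0.1) in FLM_G against BMM, and for Sod2 (-0.124) and Sod1 (-0.483) in FLM_G against FLM_M. Under quantile normalization it changed for Prdx1 (-0.182) in FLM_G against BMM and Sod1 (-0.487) in FLM_G against FLM_M. Without FLM_M replicate 2, Sqstm1 in FLM_G against FLM_M was -0.25 instead of 0.07 (range -0.25 to 0.213 over the libraries left out). Leaving out 1 library gave 2 to 5 members higher in FLM_M against BMM (4 with all libraries), with 2 without BMM replicate 1, BMM replicate 3 or FLM_M replicate 2. The other counts of calls stayed within 1.5 times under these settings. A further 49 sign changes, those on the count table included, concerned differences called in neither fit.

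On the count table, edgeR called 1 higher and 7 lower in FLM_M against BMM, 9 and 5 in FLM_G against BMM, and 10 and 4 in FLM_G against FLM_M, and DESeq2 called 0 and 3 (2 and 7 at an unadjusted p under 0.05), 9 and 5, and 10 and 3. The log2 difference had the other sign by edgeR for Nfe2l2 (0.027), Glrx (0.026), Prdx5 (-1.102) and Gss (0.111) in FLM_M against BMM, for Gss (2.046) in FLM_G against BMM and for Keap1 (0.113) in FLM_G against FLM_M. By DESeq2 it did for Prdx5 (-1.199), Prdx3 (0.196) and Me1 (0.401) in FLM_M against BMM, for Gpx3 (1.063), Mgst3 (0.14) and Gss (2.024) in FLM_G against BMM, and for Keap1 (0.149) and Prdx3 (-0.167) in FLM_G against FLM_M. The cause of these differences was not tested.

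FLM_G replicate 3 stood apart in the count table, and leaving it out was chosen after seeing the data. Without it, edgeR called 2 members higher and 8 lower in FLM_M against BMM, 12 and 7 in FLM_G against BMM, and 12 and 5 in FLM_G against FLM_M, and DESeq2 called 0 and 6, 7 and 5, and 12 and 2. By edgeR the sign then differed from that of the FPKM for Nfe2l2 (0.003), Glrx (0.004), Prdx5 (-1.122), Prdx3 (0.207) and Gss (0.093) in FLM_M against BMM, for Prdx5 (-0.264), Mgst3 (0.466) and Gss (1.92) in FLM_G against BMM, and for Keap1 (0.106), Sqstm1 (-0.669) and Prdx3 (-0.143) in FLM_G against FLM_M. By DESeq2 it did for Prdx5 (-1.204), Prdx3 (0.19) and Me1 (0.397) in FLM_M against BMM, for Nqo1 (0.216), Gpx3 (0.611), Prdx5 (-0.316) and Mgst3 (0.448) in FLM_G against BMM, and for Keap1 (0.137), Sqstm1 (-0.642) and Prdx3 (-0.145) in FLM_G against FLM_M.

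Deviations of same-numbered libraries correlated at -0.077 to 0.09, and those of differently numbered libraries at -0.096 to 0.072. Between BMM and FLM_G the same-numbered values were 0.068, 0.09 and 0.053, and the others -0.051 to -0.023. Correlations this small cannot settle whether the replicate numbers pair the libraries. With the replicate block, 4 members were higher and 20 lower in FLM_M against BMM, 15 and 17 in FLM_G against BMM, and 19 and 11 in FLM_G against FLM_M. The calls that changed were those of Me1 in FLM_M against BMM (not called, adjusted p = 0.0508), Txn2 in FLM_G against BMM (called, 0.0358) and Gclm in FLM_G against FLM_M (called, 0.0424).

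With 3 libraries per culture and no statement of separate animals, the errors cover the spread of these libraries only. Gpx3 and Gstp1, listed at 0 in FLM_M, give no fold there, and an FPKM of 0 can be a failed estimate.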
